A study of Mus musculus with 8 samples.

Results

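The Tafa genes (Tafa1 to Tafa5, written Fam19a1 to Fam19a5 in older annotations) were examined in bulk RNA-seq of dorsal root ganglia (DRG) from mouse embryos at E18.5. The family was taken by gene symbol, and all 5 members were found among the 55414 genes listed and passed the expression filter that left 17721 genes for testing. Ganglia overexpressing Dach1 (AD1 OE, genotype AdvillinCre/+;Rosa26Dach1/+, n = 4 libraries) were compared with Control ganglia (Advillin+/+;Rosa26Dach1/+, n = 4). Both groups carried 1 copy of the Rosa26 allele, in which Dach1 and EGFP lie behind a stop cassette flanked by loxP sites, and only AD1 OE carried the Cre that removes the cassette. This Cre sits in the Advillin gene, is active in sensory neurons and leaves AD1 OE with 1 intact Avil allele. The comparison asks which transcripts change when Dach1, a transcription factor that many DRG neurons switch off as they mature, is broadly expressed again from the transgene late in embryonic development. The Rosa26 line was kept on a mixed C57Bl/6J and CD1 background, and the Advillin Cre line on C57Bl/6J. The study counts 4 embryos in each group, as many as there are libraries, but the labels do not tie a library to an embryo.

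TAFA proteins are small secreted proteins, distantly related to chemokines, that are made mainly in the nervous system. A pattern of cysteines that form disulphide bonds defines the family. TAFA4 is known as a product of C-fibre low-threshold mechanoreceptors (C-LTMR), unmyelinated afferents of hairy skin that respond to gentle touch, and it dampens pain hypersensitivity after injury and acts on macrophages in skin. Several members bind neurexins, the presynaptic adhesion proteins.

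To show what the members share and where they differ, the coding stretch that holds the cysteine pattern was read from 1 GENCODE M21 transcript each of Tafa1, Tafa2, Tafa3 and Tafa5 (GRCm38), on the strand of the gene. The stretch has 75 codons (225 bases) and ends at the last cysteine codon, and capitals mark the in-frame cysteine codons TGC and TGT.

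Tafa1: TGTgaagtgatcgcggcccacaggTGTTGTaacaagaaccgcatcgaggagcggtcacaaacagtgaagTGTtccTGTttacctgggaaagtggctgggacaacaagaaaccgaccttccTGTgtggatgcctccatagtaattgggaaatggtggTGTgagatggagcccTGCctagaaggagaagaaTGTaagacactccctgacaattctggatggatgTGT

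Tafa2: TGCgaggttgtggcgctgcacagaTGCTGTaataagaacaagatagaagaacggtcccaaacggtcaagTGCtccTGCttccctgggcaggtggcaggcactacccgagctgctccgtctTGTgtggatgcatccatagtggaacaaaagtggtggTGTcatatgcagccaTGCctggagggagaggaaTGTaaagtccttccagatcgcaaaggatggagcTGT

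Tafa3: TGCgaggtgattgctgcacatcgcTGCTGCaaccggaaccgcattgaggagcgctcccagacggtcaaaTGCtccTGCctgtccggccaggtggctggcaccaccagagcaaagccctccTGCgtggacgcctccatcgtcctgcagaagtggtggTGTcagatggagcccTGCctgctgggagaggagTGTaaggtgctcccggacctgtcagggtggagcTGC

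Tafa5: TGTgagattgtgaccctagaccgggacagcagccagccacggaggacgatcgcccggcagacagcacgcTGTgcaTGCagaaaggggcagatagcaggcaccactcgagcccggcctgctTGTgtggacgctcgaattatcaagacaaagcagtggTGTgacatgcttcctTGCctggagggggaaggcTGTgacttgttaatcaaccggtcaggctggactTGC

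Tafa1, Tafa2 and Tafa3 each held 10 cysteine codons in this stretch, at the same spacing in all 3. Tafa5 held 8, lacked the pair of adjacent cysteine codons near the start, and had the other 8 at the same places. Coding sequences as a whole ran from 125 codons in Tafa5 to 135 in Tafa2. Across aligned bases, coding identity among these 4 genes was highest between Tafa1 and Tafa3, at 66.1%, and lowest between Tafa1 and Tafa5, at 56.3%. The longest run of bases shared by transcripts of any 2 members was 21, between Tafa1 and Tafa3, so the members are not near-identical copies between which reads would be split.

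The libraries held between 22339059 and 44025625 counts, and pairwise correlations of log2 CPM (counts scaled to library size with TMM factors) across genes within groups ran from 0.988 to 0.995. Dach1, the transgene's product, averaged 95.9 ± 5.28 CPM with Cre and 32.6 ± 1.64 CPM without (SD over 4 libraries), and Avil averaged 464 ± 12.0 and 892 ± 35.1 CPM, both in the direction that the labels give. All 8 markers of sensory neurons were detected, with a sum between 5180 and 5850 CPM over the 8 libraries and 0 of the 8 called. Glial, fibroblast, endothelial, macrophage and skeletal muscle markers were also present, with 0 called. Skeletal muscle markers summed to 81.8 to 406 CPM in AD1 OE and to 99.2 to 291 CPM in Control. AD1 OE replicate 3 had the highest sum of skeletal muscle markers and of fibroblast markers. Spinal cord and sympathetic markers (0 called, none at 0 in every library) were low, but Control replicate 1 stood apart, at 24.2 CPM for the 8 spinal cord markers, against 4.93 to 14.0 CPM in the other libraries, and at 13.9 CPM for the 5 sympathetic markers, against 1.14 to 3.52 CPM. By Xist and Y-linked transcripts, AD1 OE had 3 males among its 4 libraries and Control had 1, so log2 differences within each sex are given for the members and for the called genes of the lists. The only female library of AD1 OE was replicate 3, so every difference among females rests on it. In the same way, every difference among males rests on Control replicate 4, the only male library of Control. In ganglia sequenced whole, fewer cells that express a gene and less RNA of it per cell cannot be told apart.

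In AD1 OE, Tafa3 rose about 1.98-fold and Tafa4 fell to 76.8% of Control, while Tafa1, Tafa2 and Tafa5 did not pass the test. A call required that the edgeR p, adjusted by Benjamini-Hochberg, was below 0.005 and that the log2 fold change exceeded 0.25 in size. Of the 5 members, 1 was called higher and 1 lower, against 2.57% of all tested genes called in either direction (0.784% higher and 1.78% lower). The 4 AD1 OE libraries lay entirely above or below the 4 Control libraries for 3 of the 5 members (Tafa1, Tafa3 and Tafa4), against 13.0% of tested genes. The same 3 had an unadjusted edgeR p under 0.05, against 18.6% of tested genes. The median log2 fold change of the members was -0.05, beside 0.002 for all tested genes, so the family had no common direction.

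**Figure D1:**
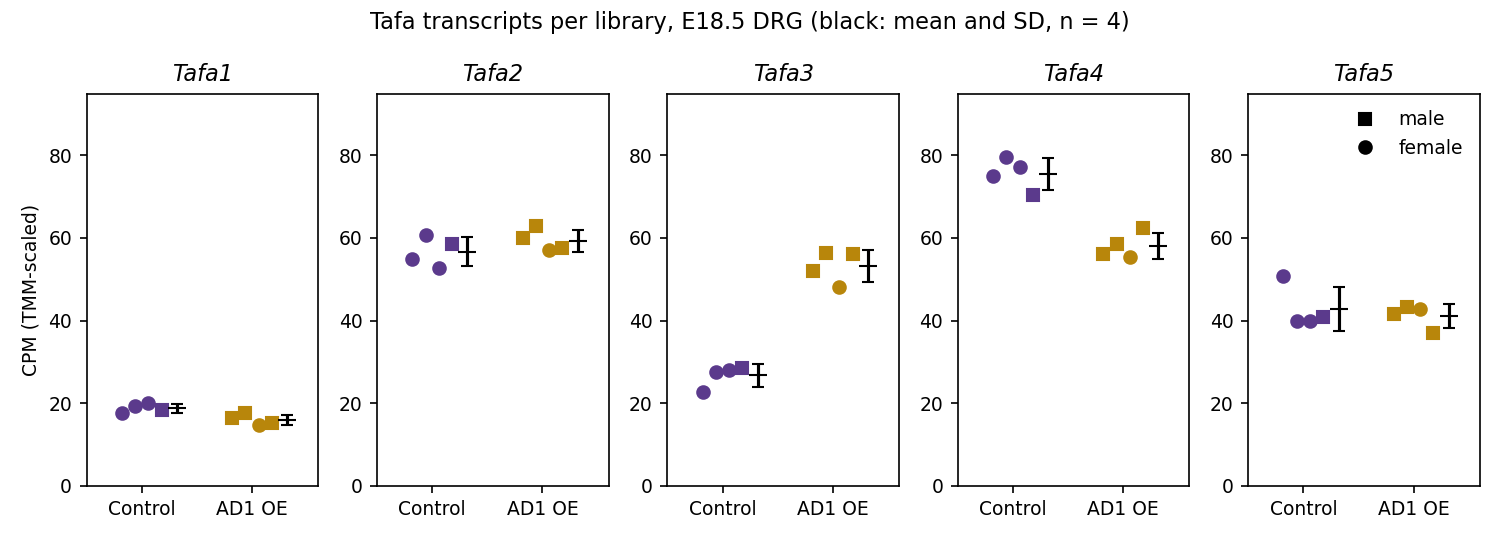
Level of each Tafa transcript in CPM (counts scaled to library size with TMM factors, linear axis) in every library, by group. Squares are male and circles female libraries, and black marks give the mean and SD of 4 libraries. The Tafa3 values of AD1 OE (48.2 to 56.3 CPM) lie above those of Control (22.7 to 28.5 CPM), and the Tafa4 values (55.5 to 62.4 CPM) lie below (70.5 to 79.6 CPM).

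Tafa3 (ENSMUSG00000055865, chromosome 3) encodes a secreted member whose function is little described. It was at 51.9, 56.3, 48.2 and 56.2 CPM in AD1 OE replicates 1 to 4 and at 22.7, 27.6, 28.1 and 28.5 CPM in Control replicates 1 to 4. The lowest AD1 OE library lay well above the highest Control library. The means were 53.1 ± 3.88 and 26.7 ± 2.72 CPM, and the log2 fold change was 0.99 (SE 0.08, 95% interval 0.82 to 1.15, edgeR adjusted p = 1.02e-05), which placed Tafa3 at rank 48 of all tested genes by p. Of the tested genes, 0.598% were called with an absolute log2 fold change of at least 0.9. On the log2 scale the difference was 0.94 among males (3 AD1 OE, 1 Control) and 0.89 among females (1 AD1 OE, 3 Control). Control replicate 1, the library with the most spinal cord and sympathetic marker counts, had the lowest Tafa3 value, and without it the log2 fold change was 0.92. The annotated exons of Tafa3 overlap those of Gm43584 on the same strand, and that gene held 1 to 8 counts per library, against 504 to 2296 for Tafa3. How the counting treated reads in shared exons is not given in the sources used here, so the effect of the overlap was not tested. Under the limit of 1 on the size of the log2 fold change that the general methods of the study give, Tafa3 is not called.

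Tafa4 (ENSMUSG00000046500, chromosome 6), the C-LTMR product, went the other way. It was at 56.0, 58.5, 55.5 and 62.4 CPM in AD1 OE replicates 1 to 4 and at 75.1, 79.6, 77.2 and 70.5 CPM in Control replicates 1 to 4. The groups did not overlap, and the highest AD1 OE library and the lowest Control library were both replicate 4. The labels do not say whether these numbers pair the samples. The means were 58.1 ± 3.16 and 75.6 ± 3.87 CPM, and the log2 fold change was -0.38 (SE 0.05, 95% interval -0.49 to -0.27, edgeR adjusted p = 0.000628). The log2 difference was -0.26 among males and -0.48 among females, and whether it differs between the sexes was not tested. The male value rests on Control replicate 4, the lowest Control library. With the sex score as a covariate the log2 fold change was -0.36, and the edgeR adjusted p of 0.00549 was just past the threshold, the highest over the alternatives, where the lowest was 2.58e-09. Under the limit of 1 on the size of the log2 fold change, Tafa4 is not called either.

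Tafa1 (ENSMUSG00000059187, chromosome 6), a brain-enriched member, was the least abundant of the family. It was at 16.4, 17.5, 14.7 and 15.3 CPM in AD1 OE replicates 1 to 4 and at 17.5, 19.3, 20.0 and 18.4 CPM in Control replicates 1 to 4. The Control libraries lay higher, but the nearest libraries of the groups both round to 17.5 CPM. The log2 fold change of -0.24 (95% interval -0.39 to -0.08) did not pass the test (edgeR adjusted p = 0.0716). It was called in 0 of 20 alternative fits, with adjusted p-values from 0.0424 to 0.182. Within sexes the log2 difference was -0.17 in males and -0.36 in females.

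Tafa2 and Tafa5, also made widely in the central nervous system, were among the more abundant members and overlapped between the groups. Tafa2 (ENSMUSG00000044071, chromosome 10) was at 59.9, 62.8, 57.0 and 57.6 CPM in AD1 OE replicates 1 to 4 and at 54.9, 60.7, 52.7 and 58.5 CPM in Control replicates 1 to 4. The log2 fold change was 0.06, with a 95% interval from -0.05 to 0.18 (edgeR adjusted p = 0.578). Tafa5 (ENSMUSG00000054863, chromosome 15) was at 41.6, 43.4, 42.8 and 37.0 CPM in AD1 OE replicates 1 to 4 and at 50.7, 39.9, 39.8 and 40.9 CPM in Control replicates 1 to 4. Control replicate 1 alone lay high, and the other 3 Control libraries fell within the AD1 OE range. The log2 fold change of Tafa5 was -0.05, with a 95% interval from -0.23 to 0.12 (edgeR adjusted p = 0.793), and 0.04 without Control replicate 1. Within sexes the log2 difference of Tafa2 was 0.04 in males and 0.03 in females, and that of Tafa5 was -0.01 in both. These intervals leave out a change of the size seen in Tafa3 for both genes. For Tafa5 the interval holds changes of up to 0.23 on the log2 scale downward.

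Replicates varied more than counting alone gives. The coefficient of variation between libraries was between 4.44% (Tafa2 in AD1 OE) and 12.3% (Tafa5 in Control), where the counts would give between 2.17% and 4.68%. Counts per library were between 384 and 2648, so no member was near the limit of detection in any library.

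Levels of different genes were compared per length, as CPM per kb of merged exons. In Control the order was Tafa5 (14.7 ± 1.81 CPM per kb), Tafa4 (13.3 ± 0.68), Tafa2 (12.1 ± 0.763), Tafa3 (5.96 ± 0.608) and Tafa1 (4.46 ± 0.256). The ranges of Tafa5 and Tafa4, and of Tafa4 and Tafa2, overlapped, whereas Tafa3 and Tafa1 each stood clear of the member above them. In AD1 OE the order was Tafa5 (14.2 ± 0.996 CPM per kb), Tafa2 (12.6 ± 0.562), Tafa3 (11.8 ± 0.866), Tafa4 (10.2 ± 0.556) and Tafa1 (3.79 ± 0.293), and only Tafa1 did not overlap with its neighbour. Among tested genes, 56.6% lay below Tafa3 in Control and 74.7% in AD1 OE, and 77.3% and 70.9% lay below Tafa4. The place of Tafa4 rests on the length used, because its merged exons (5.69 kb) exceed its longest transcript (3.77 kb), which is annotated as retaining an intron. With the longest transcript as length, Tafa4 led in Control (20.1 ± 1.03 CPM per kb, ahead of Tafa5 at 16.2 ± 1.98), and in AD1 OE it came after Tafa5 (15.4 ± 0.84 against 15.6 ± 1.09) and ahead of Tafa3 (12.3 ± 0.9).

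The summed level of the family was close in the groups, at 52.7 ± 1.87 CPM per kb in AD1 OE and 50.5 ± 1.10 in Control, and the values overlapped (50.9 to 55.3 and 49.5 to 51.5). Its make-up differed. Tafa3 made up 22.5 ± 1.22% of the sum in AD1 OE and 11.8 ± 1.39% in Control, a difference of 10.7 percentage points. Tafa4 made up 19.4 ± 1.12% and 26.3 ± 1.20%, a difference of -6.90 points. Tafa1 made up 7.18 ± 0.33% and 8.83 ± 0.62%, a difference of -1.65 points. For these 3 members the exact permutation test over libraries, two-sided, gave p = 0.0286, the smallest that 4 against 4 allows. The share of Tafa2 (24% and 23.9%) and of Tafa5 (26.9% and 29.1%) gave p = 0.914 and p = 0.343 in the same exact permutation test. The 5 shares of a library add up to 100, so these tests are not independent of each other, and their p-values are not adjusted. The size of a share also rests on the length used, here that of merged exons. In CPM without division by exon length the differences were 11.2 points for Tafa3, -8.73 for Tafa4 and -1.51 for Tafa1.

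**Figure D2:**
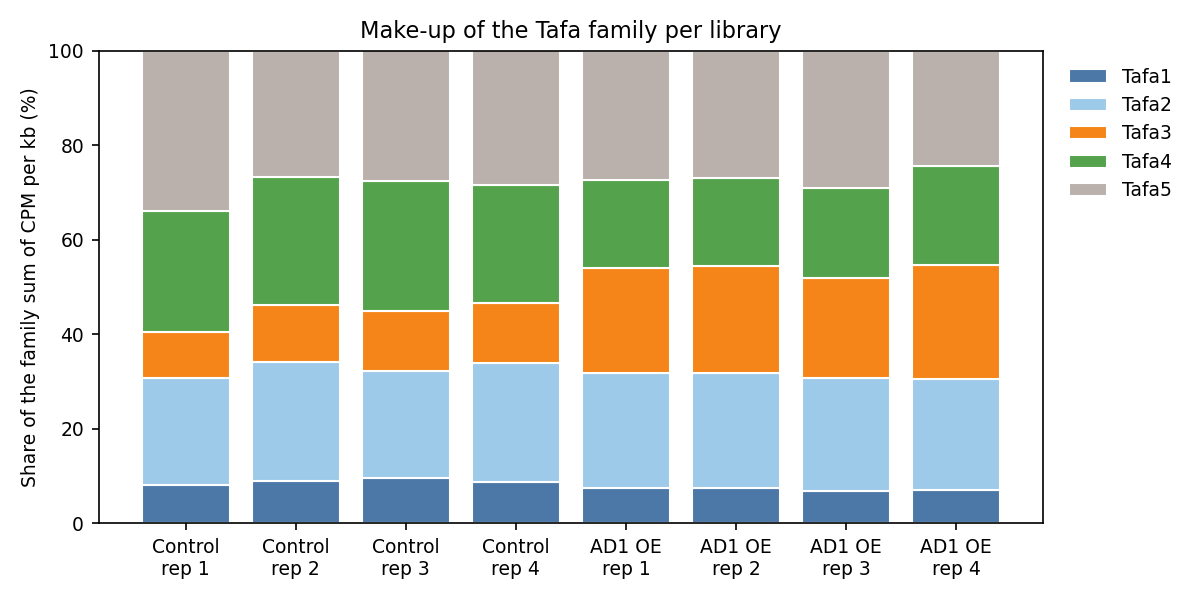
Share of each Tafa gene in the summed CPM per kb of the family (percent, stacked to 100), 1 bar per library. The Tafa3 segment takes 9.81 to 12.8% in Control and averages 22.5% in AD1 OE, and the Tafa4 segment averages 26.3% and 19.4%.

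The ratio of Tafa3 to Tafa4 in CPM per kb put both changes into a single value per library. It was 1.18, 1.22, 1.10 and 1.14 in AD1 OE replicates 1 to 4 and 0.383, 0.440, 0.463 and 0.513 in Control replicates 1 to 4. Tafa3 was thus the lower of the pair in every Control library and the higher in every AD1 OE library. With the longest transcript as length the group means were instead lower for Tafa3 than for Tafa4 in both groups, as given above.

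Because Tafa4 marks C-LTMR neurons, 9 other genes known as markers or determinants of this class were placed beside it. The paper links Ret and Runx1 to nociceptors as well, so not all of the 9 are particular to C-LTMR. Whole ganglia do not tell in which neurons a listed gene changed. Of the 9, 1 was called higher and 1 lower (22.2% called, against 2.57% of all tested genes), and their median log2 fold change was -0.12. Th, the enzyme that starts catecholamine synthesis and a classical C-LTMR marker, was chosen by the study on these libraries. Its call was thus known beforehand, and the 22.2% includes it. The paper also reported higher TH by staining E18.5 sections, and no change at an earlier stage. In the libraries Th rose in AD1 OE, to 63.8 ± 3.45 CPM from 21.2 ± 2.90 CPM (log2 fold change 1.6, edgeR adjusted p = 6.09e-07), opposite to Tafa4. The AD1 OE libraries were at 58.9 to 66.6 CPM and the Control libraries at 18.8 to 24.6 CPM, without overlap. Sympathetic neurons express Th too, and Control replicate 1, with the highest sum of sympathetic markers, had the highest Th value of Control. Gfra2, the neurturin co-receptor, fell with Tafa4, from 90.8 ± 4.87 to 60.5 ± 6.57 CPM (log2 fold change -0.58, edgeR adjusted p = 0.00023). It was at 55.8 to 70.0 CPM in the AD1 OE libraries and at 85.9 to 97.4 CPM in those of Control. Among males the log2 difference was 1.75 for Th and -0.58 for Gfra2, and among females it was 1.59 and -0.40.

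The other 7 C-LTMR genes were not called. Zfp521, a transcription factor of this class, had a log2 fold change of -0.23 with non-overlapping groups (edgeR adjusted p = 0.00795), which met neither threshold of a call but passed an adjusted p under 0.05 taken alone. The purinergic receptor P2ry1 had -0.28 (edgeR adjusted p = 0.0899), and Ret, the signalling receptor with which Gfra2 works, had -0.12 with non-overlapping groups (edgeR adjusted p = 0.199). Runx1, the transcription factor that Tafa4 expression is known to require, averaged 78.2 ± 2.24 CPM against 81.3 ± 1.06 CPM in Control, with a log2 fold change of -0.06 (95% interval -0.13 to 0.02). Slc17a8, the vesicular glutamate transporter VGLUT3, was at 4.27 ± 0.967 and 4.69 ± 0.783 CPM (95% interval of the log2 fold change -0.51 to 0.21). The calcium channel gene Cacna1i (-0.09) and the potassium channel gene Kcnd3 (0.09) were also not called.

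**Figure D3:**
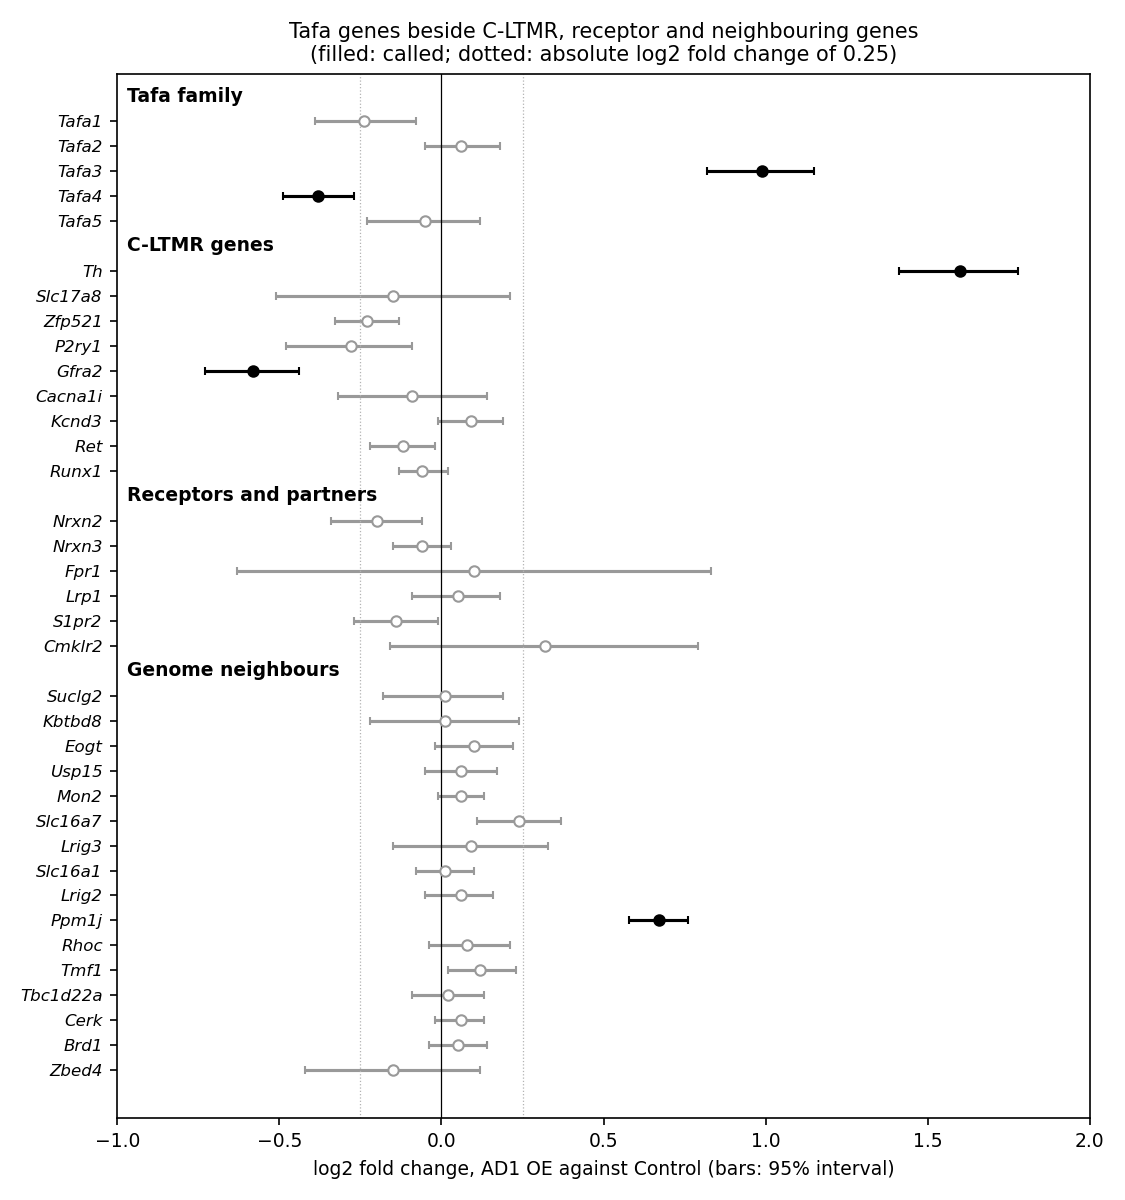
Log2 fold change of AD1 OE against Control (horizontal axis) with its 95% interval for the Tafa genes, C-LTMR genes, candidate receptors and partners, and genome neighbours reported here. Filled points were called (Tafa3, Tafa4, Th, Gfra2 and Ppm1j), and dotted lines mark an absolute log2 fold change of 0.25.

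On the receiving side, 8 genes whose proteins have been described as TAFA receptors or binding partners were listed, of which 7 were tested. None was called by edgeR (0 of 7, against 2.57% of all tested genes), and DESeq2 also called 0. An unadjusted edgeR p under 0.05 was reached by 2 of the 7, and by 18.6% of all tested genes. The neurexin gene Nrxn2 averaged 218 ± 17.4 CPM against 251 ± 18.2 CPM in Control, with a log2 fold change of -0.20 (edgeR adjusted p = 0.0931), and Nrxn3 was at 56.3 ± 1.75 and 58.9 ± 2.18 CPM. Exons of both Nrxn2 and Nrxn3 overlap genes on the opposite strand, so their counts are uncertain to that extent. The same holds for Avil, P2ry1, Kcnd3, Runx1, Eogt and Slc16a7. Lrp1, an endocytic receptor, was at 248 ± 19.8 and 240 ± 16.2 CPM, and the sphingosine 1-phosphate receptor gene S1pr2 at 22.2 ± 1.06 and 24.4 ± 1.46 CPM (log2 fold change -0.14, edgeR adjusted p = 0.246). The formyl peptide receptor genes, which are mainly expressed in myeloid cells, were near the limit of detection, with 7 to 18 counts of Fpr1 and 2 to 12 counts of Fpr2 per library, and Fpr2 did not pass the filter. Cmklr2 (Gpr1 in older annotations) held 17 to 56 counts. For Fpr1 and Cmklr2 the 95% intervals of the log2 fold change ran from -0.63 to 0.83 and from -0.16 to 0.79, so a moderate change was not detectable at this depth.

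The genes beside each member on its chromosome were read to see how local the changes were. The 2 nearest tested protein-coding genes on each side of each member gave 16 neighbours outside the family, of which 1 was called higher and 0 lower (6.25%, against 2.57% of all tested genes). The called gene, Ppm1j, encodes a protein phosphatase and adjoins Tafa3 on the opposite strand, where the annotated bodies of the genes overlap without a shared exon. Ppm1j was at 130, 137, 132 and 138 CPM in AD1 OE replicates 1 to 4 and at 79.2, 83.6, 89.7 and 84.9 CPM in Control replicates 1 to 4. Its groups were as clearly apart as those of Tafa3, and its log2 fold change was 0.67 (95% interval 0.58 to 0.76, edgeR adjusted p = 2.3e-06). The log2 difference was 0.67 among males and 0.65 among females. The other 3 neighbours of Tafa3, namely Rhoc (0.08), Slc16a1 (0.01) and Lrig2 (0.06), were not called. A stranded kit was used, but the strand setting of the counting is not given in the sources used here.

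Tafa1 and Tafa4 lie on chromosome 6 with 1 other protein-coding gene between them, which did not pass the filter. Both had negative log2 fold changes, but only that of Tafa4 was called, and the genes on their outer sides were not called, with Suclg2 and Kbtbd8 at 0.01, Eogt at 0.10 and Tmf1 at 0.12. Tafa2 shares chromosome 10 with Avil, with 4 protein-coding genes between them. AD1 OE and Control differ in the Avil allele and possibly in the chromosome around it, which for genes in this region cannot be told apart from the effect of Dach1. The neighbour of Tafa2 that came nearest to a call was Slc16a7, a monocarboxylate transporter, which averaged 89.8 ± 6.68 CPM against 76.2 ± 4.85 CPM in Control (log2 fold change 0.24, edgeR adjusted p = 0.033). It passed an adjusted p under 0.05, as 6.55% of all tested genes did, but not the stricter call.

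The genes whose log2 CPM ran most like that of each member over the 8 libraries were picked from 14101 tested protein-coding genes that averaged 1 CPM or more. These likenesses are descriptions, and all points share the group difference and the scaling. For Tafa3 they were Cd44, a hyaluronan receptor (Pearson r 0.996, Spearman rho 0.952), Cpne4, a calcium-dependent membrane-binding protein (0.993 and 0.905), and Ebf3, a transcription factor (0.991 and 0.857), over 8 libraries. Picked over both groups, these genes share the group difference of Tafa3 by selection. Each was called higher in AD1 OE, with log2 fold changes of 0.41, 0.57 and 0.39 (edgeR adjusted p = 0.000138, 3.09e-05 and 7.57e-05). In deviations from the group means their r with Tafa3 was 0.934, 0.891 and 0.84. For Tafa4 they were 1500009L16Rik (r 0.994), Rraga (0.984) and Serpinb6a (0.98), a serine protease inhibitor, with log2 fold changes of -0.32, -0.12 and -0.35, of which only that of Serpinb6a was called (edgeR adjusted p = 9.95e-05). For Tafa1 the nearest gene was Deptor (r 0.982, log2 fold change -0.33, edgeR adjusted p = 0.03), for Tafa2 Zrsr2 (0.987) and for Tafa5 the ribosomal protein gene Rps18 (0.995). Among the members, deviations from the group means were most opposed for Tafa3 and Tafa5 (r -0.813 over 8 libraries), a value in which Control replicate 1 was low for Tafa3 and high for Tafa5.

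**Figure D4:**
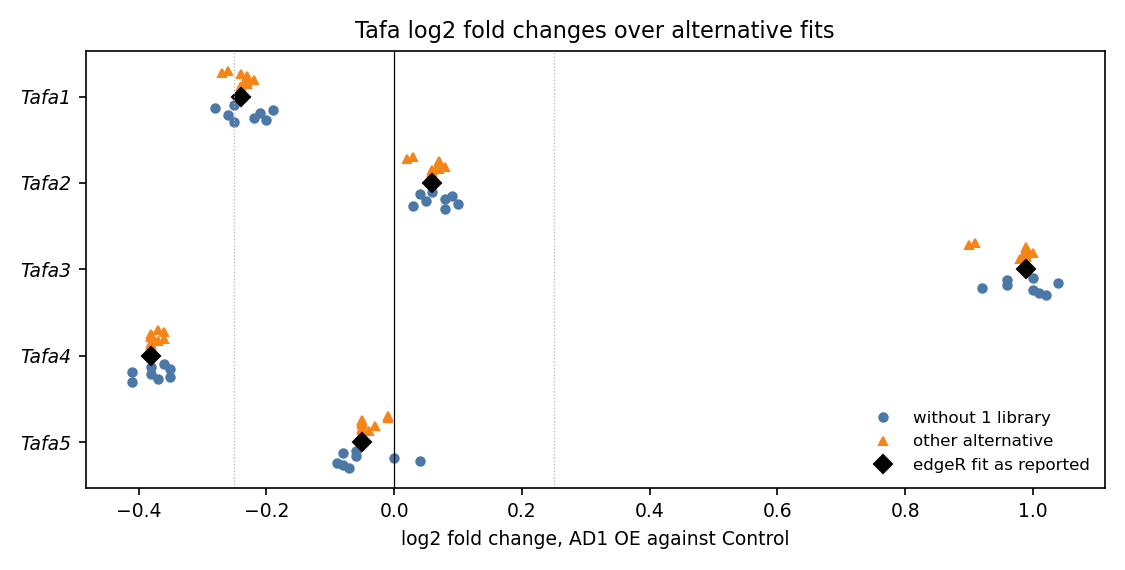
Log2 fold change of each Tafa gene (horizontal axis) in the edgeR fit as reported (diamonds), in the fits without 1 library (circles) and in the other alternative fits (triangles), with dotted lines at an absolute log2 fold change of 0.25. Tafa3 stays between 0.90 and 1.04 and Tafa4 between -0.41 and -0.35, while the values of Tafa5 run from -0.09 to 0.04.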

How the data were processed

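Total RNA of E18.5 DRG was made into poly(A) libraries with a stranded Illumina kit. The authors aligned reads to GRCm39 with STAR 2.7.8a, counted them per Ensembl gene with featureCounts 2.0.1 and deposited raw counts, 1 library per file, unfiltered. The strand setting is not given in the sources used here. Files held 0 lines naming no gene. Replicates differed beyond counting noise (chi-square per degree of freedom 4.02 to 11.1).

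Symbols, gene order, exon lengths and transcript sequences came from GENCODE M21 (GRCm38), an older build, so no coordinates are given. Of 55414 IDs, 52081 had a symbol. No protein sequences were used here. The values of 1 listed partner gene and the sequence of 1 member are not reported here.

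Counts were tested in R 4.3.3 with edgeR 4.0.16 (filterByExpr, TMM, quasi-likelihood F test, genotype as the only term), with Benjamini-Hochberg adjustment over all tested genes. The study used DESeq2 with the same thresholds for this comparison, which was run as an alternative (1.42.0), as was limma-voom (3.58.1). The SE is the log2 fold change over the root of F, and intervals are 95%. Shares used exact permutation tests. Levels for likeness were log2 CPM with a prior count of 2. All counting errors given cover counting only. The statistics were tested on simulated data.

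The members and the gene lists were chosen with earlier results of these data known. Named are the members, Dach1, Avil, genes of the C-LTMR and receptor lists, the 2 nearest tested protein-coding genes on each side of a member, and the 3 genes with the highest Pearson r to each member. Sex was read from Xist and 4 Y-linked genes, and a 2-level sex term was added as an alternative after seeing the data. Replicate numbers were not taken to pair the samples, and the labels do not say whether they do.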

Additional observations from a re-analysis of the deposited data

Results flagged for a closer look

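Control replicate 1 lay apart from the other 3 Control libraries in 2 of the 10 sets of 4 libraries examined (5 members in 2 groups), where its gap to the nearest library was over 0.829 of the range, Dixon's limit for 4 samples. Chance flags about 1 in 20 such sets. Tafa3 was at 22.7 CPM there, with the nearest library at 27.6 CPM, and Tafa5 was at 50.7 CPM, with the nearest at 40.9 CPM. The same library held the most counts of spinal cord markers (24.2 CPM) and sympathetic markers (13.9 CPM), and their part in these values was not tested. Without it, the log2 fold change was 0.92 for Tafa3, which was still called, and 0.04 for Tafa5, which was not.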

How the results depend on the processing

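Over 20 alternatives per member (12 other settings and 8 fits without 1 library), Tafa3 was called in 19 and Tafa4 in 18, each with its direction kept, and Tafa1, Tafa2 and Tafa5 in 0. When a log2 fold change beyond 1 in size was required together with an adjusted p under 0.05, neither Tafa3 (0.99) nor Tafa4 (-0.38) was called, so that 0 members were. With the sex score as a covariate Tafa4 (-0.36, edgeR adjusted p = 0.00549) lost its call and 1 member was left, but with sex in 2 levels it was called (-0.37, adjusted p = 0.00356). Without 1 library the log2 fold change ran from 0.92 to 1.04 for Tafa3 and from -0.41 to -0.35 for Tafa4, with 2 members called each time. With the adjusted p alone (under 0.05), 2 genome neighbours were called (Ppm1j and Slc16a7) in place of 1, and 3 C-LTMR genes (Th, Gfra2 and Zfp521) in place of 2. Of all tested genes, 6.55% met that looser rule. With the longest transcript as length, 3 of the 5 places in the order of members by mean level over all libraries changed. The replicate number as a replicate block left 2 members called (Tafa3 0.99, Tafa4 -0.38) and moved the calls over all genes from 455 to 348. Deviations of same-numbered libraries correlated at between -0.0541 and 0.313, the highest for replicate 4. With so few libraries these values do not settle whether the numbers pair the samples. The numbers were not taken to do so, because the labels do not say.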
